A study of Mus musculus with 14 samples.

Results

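The heat shock protein genes described here are 10 genes picked by name: Hsf1, Hspa1a, Hspa1b, Hspa8, Hsp90aa1, Hsp90ab1, Hspa5, Hspa9, Hspd1 and Hspe1. All 10 were found among the 20242 gene symbols of the tables, as 11 of the 25250 transcript entries with a symbol, because Hspa5 has 2 entries. RNA of 14 single mouse embryos made by somatic cell nuclear transfer (SCNT) had been sequenced, with 1 library per embryo. Their strain was B6D2F1, the donor nuclei came from cumulus cells, and every embryo was activated with strontium in the presence of cytochalasin B and cultured with deionized bovine serum albumin. The control group was 3 embryos without a further treatment. TSA is trichostatin A, a histone deacetylase inhibitor, given at 50 nM from 0 to 8 h after the start of activation, and VC is vitamin C at 10 µg/ml, given either over the same hours (early VC) or from 8 to 15 h (late VC). The treated embryos were 3 with TSA alone, 1 with early VC alone, 2 with late VC alone, 2 with TSA+early VC and 3 with TSA+late VC. Embryos were taken at the two-cell stage, at 28 h, which the labels count from nuclear transfer and the methods from activation. The group of 1 embryo has no replicate, and a part of each embryo's RNA was amplified by PCR, so amplification error and differences between embryos cannot be told apart.

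Heat shock proteins are molecular chaperones, which bind unfolded or partly folded proteins and help them to fold, to be transported or to be degraded. Hsf1 encodes the transcription factor that binds heat shock elements, arrays of the unit NGAAN in alternating orientation, and switches on chaperone genes when unfolded proteins build up. In mouse embryos, the inducible HSP70 genes are known among the first genes to be transcribed when the embryonic genome becomes active, without any heat shock, and the oocyte's store of HSF1 is known to be needed for early development.

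The upstream sequences of the inducible HSP70 genes and of Hspe1 are shown because they carry the motif that Hsf1 recognises and because they show how alike the HSP70 pair is. They are RefSeq promoter sequences (GRCm38.p6) that were found again by exact match in mm9, the build of the deposited values. The capitals mark the heat shock units searched for, GAANNTTC in the HSP70 pair and the overlapping matches of GAANNTTCNNGAA on both strands in Hspe1.
Hspa1a, chr17:35109102-35109351, minus strand, the 250 bases before the transcription start: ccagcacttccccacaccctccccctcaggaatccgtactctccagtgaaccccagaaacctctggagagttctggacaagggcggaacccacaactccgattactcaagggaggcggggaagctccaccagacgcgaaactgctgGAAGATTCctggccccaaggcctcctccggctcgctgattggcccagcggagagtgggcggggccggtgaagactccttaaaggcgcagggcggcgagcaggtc
Hspa1b, chr17:35096184-35096433, minus strand, the 250 bases before the transcription start: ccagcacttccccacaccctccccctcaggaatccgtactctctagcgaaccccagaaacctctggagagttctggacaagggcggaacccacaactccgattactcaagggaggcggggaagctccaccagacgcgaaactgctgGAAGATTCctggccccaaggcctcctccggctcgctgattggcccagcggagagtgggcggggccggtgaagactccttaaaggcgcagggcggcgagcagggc
Hspe1, chr1:55144897-55144926, plus strand, the motif with its flanks: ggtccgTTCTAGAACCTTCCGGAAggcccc
The HSP70 stretches differed in 3 of 250 bases. Each held GAANNTTC once, 104 bases before the start (offset -104), and neither held the longer GAANNTTCNNGAA. In Hspe1 the longer motif began at offset -89, and the same stretch, read on the other strand, lies in a window of its neighbour Hspd1. Of 32851 promoter windows of 300 bases, 0.603% held GAANNTTCNNGAA, 7.86% held GAANNTTC and 8.52% held TTCNNGAA, on either strand. The Hspa5 window held none of the 3 motifs. Promoter sequences were matched for 5 of the 10 genes, and a match is a description of the letters, not of binding.

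Like sequences elsewhere in the genome, and overlap with a neighbour, limit how well the reads of a gene can be told apart. Hspa1a (chr17:35106144-35109069) and Hspa1b (chr17:35093381-35096183) are single-exon genes on the minus strand, 9960 bases from each other, and their coding sequences were 99.6% identical, with 8 of 1926 bases different. Of the 50-base windows of their transcripts, the length of the reads, 59.4% of Hspa1a and 62.3% of Hspa1b occurred also in the partner. For Hspa8 (chr9:40609067-40613283), 87.4% of the windows of the annotated transcript occurred elsewhere in the genome, and for Hsp90aa1 (chr12:111928815-111940938) 82.2%. It was 58.5% for Hspd1 (chr1:55134679-55145087) and 46.5% for Hspe1 (chr1:55144976-55148151), whose genes run in opposite directions and overlap by 112 bases. Hspa9, on chromosome 18, had 8.7% and Hsp90ab1 (chr17:45704724-45710220) 8.30%. Hsf1 (chr15:76307865-76331402) and Hspa5 (chr2:34627490-34632051) had none. How reads with several places in the genome were counted is not given in the sources used here, so the levels of Hspa1a, Hspa1b, Hspa8, Hsp90aa1, Hspd1 and Hspe1 are uncertain to that extent. Since strand was not stated to be used, reads from the overlap of Hspd1 and Hspe1 cannot be assigned to either gene.

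Values are RPKM, read counts divided by the length of the transcript and by the total of the library, so levels can be compared between genes. They are shares of the RNA: less RNA of a gene and more RNA of all other genes cannot be told apart. Between 3021540 and 13589389 reads had been counted per embryo, and 3 reads on a transcript of 1 kb were worth 0.221 to 0.993 RPKM. Between 3322 and 6728 entries reached 1 RPKM in an embryo. By their library identifier the libraries fell into 3 sets, of 5, 6 and 3 embryos, called pools here. Whether a pool was a sequencing run, a library batch or a nuclear transfer experiment is not given in the sources used here. Pool 3 held replicate 3 of the control, TSA and TSA+late VC groups and was the deepest, with 11753807 to 13589389 reads. As a check of the tissue, 9 of 10 oocyte markers reached 1 RPKM in at least 7 embryos. Of 12 cumulus cell markers 1 did so, 4 reached 1 RPKM in any embryo, and Fshr and Inhba were at 0 in every embryo. The cumulus markers summed to 0 to 144 RPKM in an embryo, with Amhr2 as the top gene.

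The genes fell into an abundant and a low or variable set. Ordered by their median over the 14 embryos, Hspa8 (237 RPKM), Hsp90ab1 (230 RPKM), Hsp90aa1 (179 RPKM), the long entry of Hspa5 (171 RPKM) and Hspa9 (123 RPKM) were above 1 RPKM in all 14 embryos, at a median percentile of 91.1 to 96.6 among the entries detected in an embryo. Hspd1 (26.3 RPKM) reached 1 RPKM in 13 embryos and Hsf1 (17.5 RPKM) in 12. Hspa1b (0.878 RPKM), Hspe1 (0.536 RPKM) and Hspa1a (0.362 RPKM) reached it in 7, 5 and 5 embryos. The embryos' ranges of neighbours in this order overlapped in every case. The 11 entries together took 0.166% to 0.507% of the reads of an embryo, with a median of 0.292%. The lowest share was in control replicate 3 (95% Wilson interval 0.164% to 0.168%) and the highest in late VC replicate 2 (0.502% to 0.513%), intervals that cover counting error only.

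**Figure D1:**
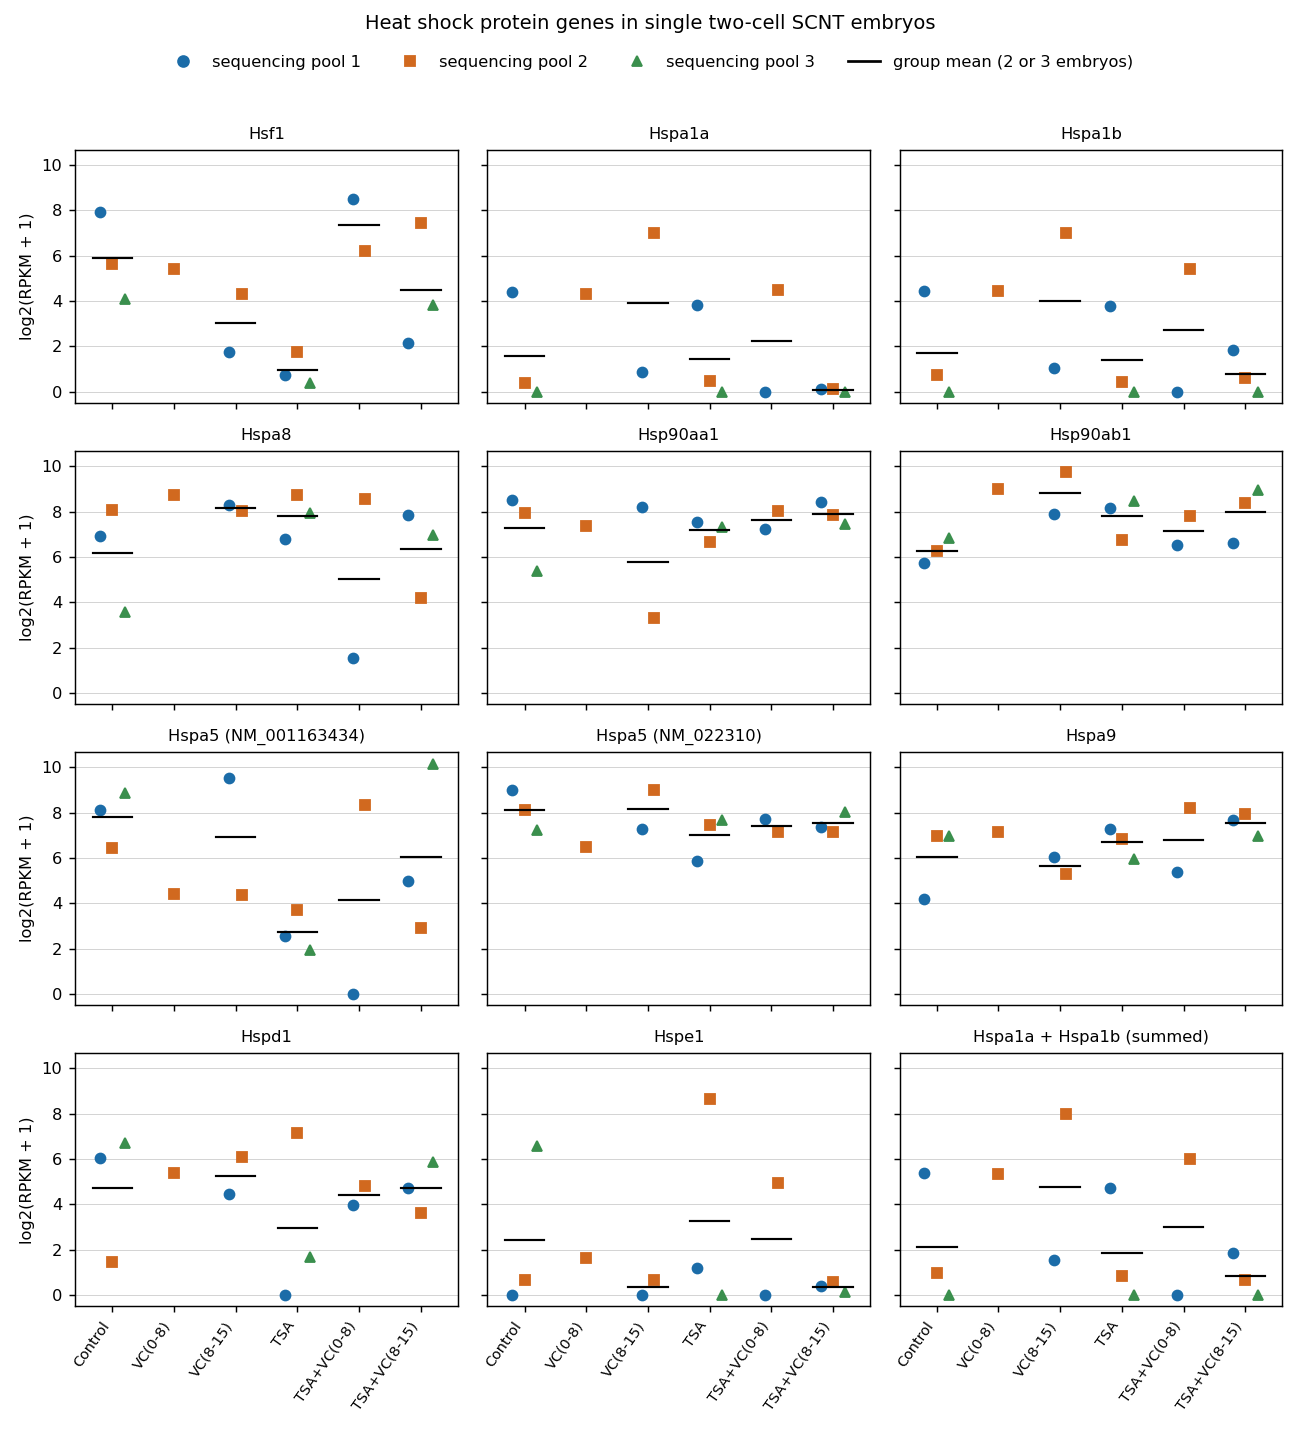
Each point is an embryo, with log2(RPKM+1) on the vertical axis and the 6 treatments on the horizontal axis, hours of VC in brackets. Colour and shape mark the pool, the set of libraries with the same identifier, called sequencing pool in the legend. A line marks the group mean where a group has 2 or 3 embryos. Hspa1a and Hspa1b lie at 0 in all 3 embryos of pool 3, and the 3 TSA embryos lie below the 3 control embryos for Hsf1 and for the short Hspa5 entry NM_001163434.

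Hsf1 was detected in every embryo, and its highest value was 1245 times its lowest. It was at 243, 48.4 and 16.2 RPKM in control replicates 1, 2 and 3. With TSA, replicates 1, 2 and 3 were at 0.656, 2.41 and 0.295 RPKM, from 4, 38 and 7 reads. All 3 TSA embryos were thus below all 3 control embryos, as for 11.8% of the 2529 transcripts tested in that comparison.

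With TSA+late VC, Hsf1 was at 3.42, 176 and 13.0 RPKM. These 3 embryos were each above the 3 TSA embryos, and their range overlapped that of the controls. With late VC alone it was at 2.36 and 18.8 RPKM, in the early VC embryo at 42.0 RPKM and with TSA+early VC at 367 and 74.0 RPKM. Ordered by group mean, TSA+early VC was highest at 221 RPKM, followed by control at 102 ± 122 RPKM (SD, n = 3), TSA+late VC at 64.0 ± 96.8 RPKM (SD, n = 3), early VC, late VC at 10.6 RPKM and TSA at 1.12 ± 1.13 RPKM (SD, n = 3). Only the TSA group lay apart from both of the other groups of 3 embryos. Of the transcripts tested, 11.8% had every TSA embryo below every control embryo. Every TSA+late VC embryo was above every TSA embryo for 18.3% of those tested. The share with both was not computed.

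The difference in Hsf1 between TSA and control embryos was -4.93 on the log2(RPKM+1) scale (standard error 1.96, 95% interval -8.93 to -0.92), a scale that understates the change of low values. It did not pass the adjustment over 2529 transcripts (adjusted p = 0.210, limma with the Benjamini-Hochberg method). Hsf1 entered this test only through the control embryos, where it is high, and with a filter blind to the groups its adjusted p was 0.860 (limma). Within the pools the difference was -7.20, -3.86 and -3.73, which restates that the groups did not overlap. Between TSA+late VC and TSA embryos it was 3.52 (standard error 1.52, adjusted p = 0.215 from limma). Hsf1 entered this test only through the TSA+late VC embryos, where it is higher. With the filter blind to the groups its adjusted p was 0.657 (limma). The difference was 2.47 with median-ratio scaling, described with the counts of calls. It was 2.02 without TSA+late VC replicate 2 and 4.68 without replicate 1. Between TSA+late VC and control embryos it was -1.41 (standard error 1.55, adjusted p = 0.679 from limma).

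The other heat shock factor genes were not detected at a like level. Of Hsf2, Hsf4, Hsf5 and the factors' binding protein gene Hsbp1, none reached 1 RPKM in 7 or more embryos. Their highest values in any embryo were 14.3, 0.140, 11.6 and 47.5 RPKM.

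Hspa1a and Hspa1b, the stress-inducible cytosolic HSP70 genes, were high in a few embryos of several groups and at or near 0 in the rest. Hspa1a was at 20.1, 0.312 and 0 RPKM in control replicates 1, 2 and 3, and Hspa1b at 20.5, 0.674 and 0 RPKM. With TSA, Hspa1a was at 13.0, 0.412 and 0 RPKM and Hspa1b at 12.7, 0.364 and 0 RPKM. The control and TSA groups therefore had the same form, with replicate 1 high and replicate 3 without a read.

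With TSA+late VC, Hspa1a was at 0.0823, 0.0920 and 0 RPKM, which are 1, 2 and 0 reads, and Hspa1b at 2.54, 0.504 and 0 RPKM. The highest values were those of late VC replicate 2, at 127 RPKM for Hspa1a and 126 RPKM for Hspa1b, while replicate 1 of that group was at 0.833 and 1.08 RPKM. In the early VC embryo they were at 19.1 and 20.9 RPKM. Of the TSA+early VC embryos, replicate 1 had 0 reads of both genes and replicate 2 was at 21.6 RPKM for Hspa1a and 42.2 RPKM for Hspa1b. High and low embryos thus occurred within the same treatment, except with TSA+late VC, where all 3 were low, and early VC, which has 1 embryo.

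The embryos without a read of either gene were the 3 of pool 3 and TSA+early VC replicate 1. The pool 3 libraries were deep, and 3 reads of Hspa1a were worth 0.0789 to 0.0912 RPKM in them, which bounds the level there by counting error only. The part of the pool in this was not tested.

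Because reads may be split between them, the pair was also taken as a sum. The summed level was 13.9 ± 23.2 RPKM (SD, n = 3) in control, 8.84 ± 14.6 RPKM (SD, n = 3) in TSA and 1.07 ± 1.37 RPKM (SD, n = 3) in TSA+late VC embryos. TSA+late VC embryos differed from control by -1.28 on the log2 scale (two-sided exact permutation test, p = 0.7), TSA embryos from control by -0.27 (exact permutation test, p = 0.8), and the treated groups from each other by -1.01 (exact permutation test, p = 0.7), in a design whose smallest possible p is 0.1. The direction of the first turned to 0.35 without control replicate 1 and that of the last to 0.43 without TSA replicate 1. That of the second turned to 1.36, 0.25 and 0.66 without control replicate 1, TSA replicate 2 and TSA replicate 3.

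Over all treatments, the 8 embryos with TSA had a median summed level of 0.686 RPKM and a range from 0 to 63.8 RPKM, against a median of 21.0 RPKM and a range from 0 to 253 RPKM in the 6 without. The difference in mean log2 was -1.78 (two-sided exact permutation test, p = 0.251). It was -1.26 within pool 1, -2.27 within pool 2 and 0 within pool 3, where all values are 0, and -1.90 without pool 3 (exact permutation test, p = 0.260), an alternative added after seeing the data. Without late VC replicate 2 it was -0.89.

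Hspa8, the constitutive cytosolic HSP70 that works in folding and in clathrin uncoating, was abundant with 3 low embryos. It was at 119, 270.3 and 10.8 RPKM in control replicates 1, 2 and 3, at 108, 423 and 242 RPKM with TSA and at 232, 16.9 and 125 RPKM with TSA+late VC. TSA+early VC replicate 1 had the lowest value, 1.89 RPKM from 13 reads, while replicate 2 was at 369 RPKM. It was at 422 RPKM with early VC and at 310.2 and 260.2 RPKM with late VC.

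The difference in Hspa8 was 1.62 between TSA and control embryos (standard error 1.17, adjusted p = 0.566 from limma), 0.15 between TSA+late VC and control embryos (95% interval -2.52 to 2.82) and -1.47 between the treated groups (95% interval -3.73 to 0.79). The low embryos were not of 1 group or 1 pool. In the first comparison the pools gave -0.13, 0.64 and 4.36, and in the second 0.96, -3.92 and 3.41.

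The cytosolic HSP90 genes encode chaperones that finish the folding of kinases, receptors and other clients, Hsp90aa1 being the more inducible and Hsp90ab1 the more constitutive form. Hsp90aa1 was at 368, 246 and 40.2 RPKM in control embryos, at 185, 99.7 and 157 RPKM with TSA and at 346, 228 and 173 RPKM with TSA+late VC. The lowest value was that of late VC replicate 2, 8.91 RPKM, against 294 RPKM in replicate 1. With early VC it was at 164 RPKM, and with TSA+early VC at 149.7 and 259 RPKM. Its 3 groups of 3 embryos overlapped in every comparison.

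Hsp90ab1 had low values in the control group. It was at 52.2, 74.7 and 112 RPKM in control replicates 1, 2 and 3, at 280.4, 106 and 353 RPKM with TSA and at 98.3, 330.2 and 491 RPKM with TSA+late VC. The highest value, 857 RPKM, was again that of late VC replicate 2, with replicate 1 at 237 RPKM. The early VC embryo was at 516 RPKM and the TSA+early VC embryos at 90.2 and 223 RPKM. The control mean, 79.7 ± 30.3 RPKM (SD, n = 3), was the lowest of the 6 treatments, next to 156 RPKM with TSA+early VC. The control embryos overlapped with those of TSA, TSA+late VC and TSA+early VC, and lay below the early VC embryo and both late VC embryos. The share of all transcripts with such an order was not computed.

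For Hsp90ab1, TSA+late VC embryos were 1.72 above control embryos on the log2 scale (standard error 0.83, 95% interval -0.041 to 3.47, adjusted p = 0.283 from limma), and higher in 3 of 3 pools, by 0.90, 2.13 and 2.12. With median-ratio scaling, described with the counts of calls, it was 0.89. TSA embryos were 1.52 above control (standard error 1.06, adjusted p = 0.544 from limma), also higher in 3 of 3 pools. Over all transcripts tested, the median differences were 0.78 and -0.38, and the share higher in 3 of 3 pools was not counted. Neither of the Hsp90ab1 differences passed the test. For Hsp90aa1 the same differences were 0.62 (95% interval -1.11 to 2.36) and -0.11 (95% interval -2.26 to 2.03).

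Hspa5, also called BiP, is the HSP70 of the endoplasmic reticulum and a marker of the unfolded protein response there. Its entry NM_022310 covers 2616 bases, and its entry NM_001163434 was counted over 275 bases, as worked out from the steps of the values. Which bases of the transcript were counted for the short entry is not given in the sources used here. The long entry was at 514, 275 and 150.3 RPKM in control embryos, at 57.2, 177 and 201 RPKM with TSA and at 165, 140.3 and 264 RPKM with TSA+late VC. In the other embryos it was between 87.8 RPKM, in the early VC embryo, and 508 RPKM, in late VC replicate 2. It had the smallest range of the 11 entries, 8.99 times from the lowest embryo to the highest.

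The short entry gave a different picture of the same gene. It was at 275, 84.8 and 462 RPKM in control replicates 1, 2 and 3. With TSA it was at 4.81, 12.1 and 2.78 RPKM, from 4, 26 and 9 reads. These groups did not overlap, and 11.8% of all transcripts tested there were likewise lower in every TSA embryo. With TSA+late VC the short entry was at 31.0, 6.55 and 1146 RPKM, and in the late VC embryos at 741 and 19.4 RPKM. The early VC embryo was at 20.5 RPKM and the TSA+early VC embryos at 0 and 320.0 RPKM.

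Between TSA and control embryos, the short entry differed by -5.07 (standard error 1.63, 95% interval -8.41 to -1.73, adjusted p = 0.134 from limma). The long entry differed by -1.12 (standard error 0.94, 95% interval -3.04 to 0.79, adjusted p = 0.645 from limma), lower in 2 of 3 pools. Of the reads of the gene, most fell on the long entry. In control replicate 1, for example, it had 7293 reads and the short entry 410. The split was less uneven in other embryos. The long and short entries had 8470 and 3869 reads in TSA+late VC replicate 3, and 4011 and 2010 in late VC replicate 1.

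Hspa9, the HSP70 of the mitochondrial matrix that pulls in imported proteins, was at 17.0, 123 and 123 RPKM in control embryos, at 153, 113 and 60.8 RPKM with TSA and at 202, 245 and 123 RPKM with TSA+late VC. The early VC embryo was at 141 RPKM, the late VC embryos at 64.7 and 37.8 RPKM and the TSA+early VC embryos at 41.2 and 289 RPKM. Control replicate 1 was the lowest embryo. TSA+late VC embryos were 1.49 above control embryos (standard error 0.95, 95% interval -0.50 to 3.49, adjusted p = 0.428 from limma), by 3.49, 0.99 and 0.00076 in pools 1, 2 and 3. It was 0.57 without control replicate 1 and 0.66 with median-ratio scaling.

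Hspd1 and Hspe1 encode HSP60 and its lid HSP10, the mitochondrial chaperonin, and share their upstream region. Hspd1 was at 65.9, 1.75 and 103 RPKM in control embryos, at 0, 140.5 and 2.19 RPKM with TSA and at 25.6, 11.3 and 57.4 RPKM with TSA+late VC. In the other 5 embryos it was between 14.7 and 66.5 RPKM. Both the lowest and the highest embryo were thus of the TSA group, and the differences had 95% intervals from -6.36 to 2.76 for TSA against control and from -3.44 to 3.43 for TSA+late VC against control.

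Hspe1 was at 397 RPKM in TSA replicate 2, from 2380 reads, at 95.2 RPKM in control replicate 3 and at 29.7 RPKM in TSA+early VC replicate 2. In the remaining 11 embryos it was between 0 and 2.14 RPKM, that is at most 7 reads. Its high embryos belonged to 3 treatments. The highest embryo of Hspe1 was also the highest of Hspd1, but over the 14 embryos their levels had a Spearman correlation of 0.396, given as a description.

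**Figure D2:**
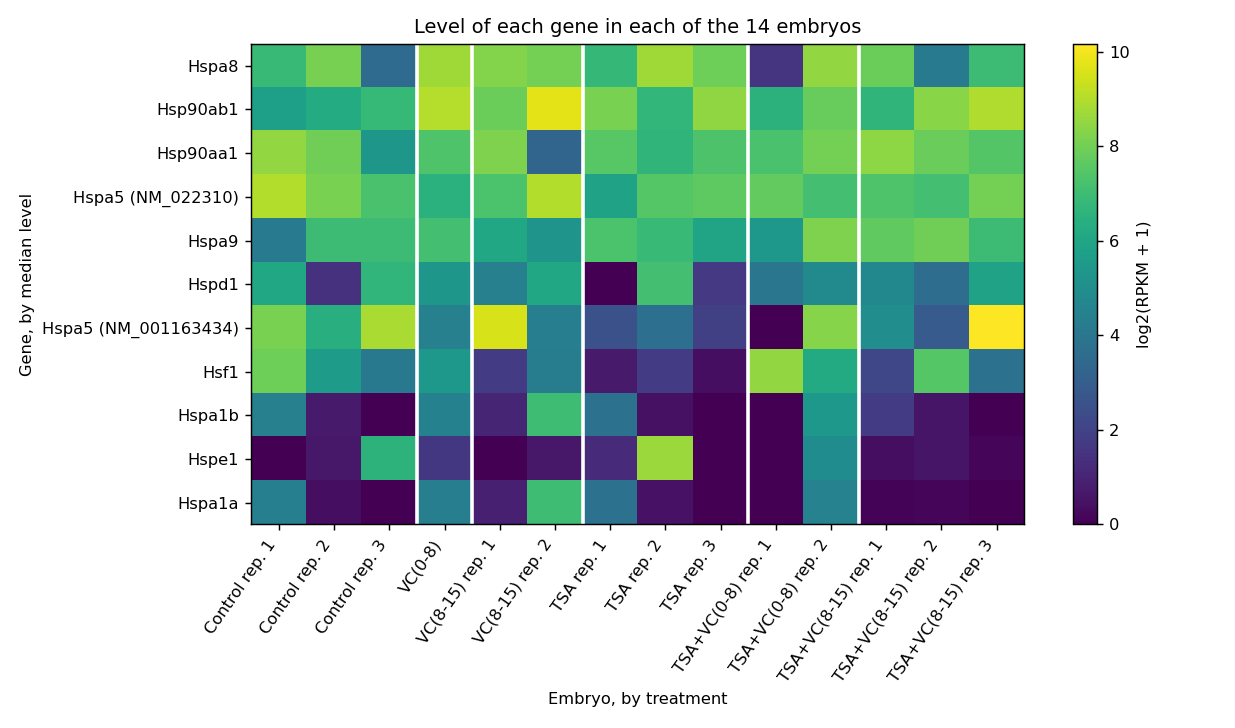
Each column is an embryo, grouped by treatment with white lines between groups, and each row is an entry, ordered by its median RPKM from high to low. Colour is log2(RPKM+1) from 0 to about 10. The upper 5 rows are filled across all embryos apart from single dark cells, such as Hspa8 in TSA+early VC replicate 1 (1.89 RPKM), and Hspa1a, Hspa1b and Hspe1 are bright in a few embryos.

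None of the heat shock protein genes passed the threshold, an adjusted p under 0.05 in limma, in any comparison. The test took transcripts that reached 1 RPKM in each of the 3 embryos of one of the groups compared, which left 8 of the 11 entries, from 7 genes, in each comparison. Hspa1a, Hspa1b and Hspe1 were not tested there. Between TSA+late VC and control embryos, 0 of 8 entries were called, against 0.0293% of 3416 transcripts. Between TSA and control it was 0 of 8, against 0.119% of 2529, and between TSA+late VC and TSA 0 of 8, against 0% of 3243. With limma-voom on recovered reads the count was 0 as well in each of them.

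At an unadjusted p under 0.05, the counts were 0, 2 and 1 of 8 entries in these comparisons, against 18.4%, 15.2% and 18.6% of all transcripts tested. The 2 lower with TSA were the short Hspa5 entry and Hsf1, and the same 2 were those whose embryos did not overlap, in a comparison where 11.8% of all transcripts tested had every TSA embryo below every control embryo and 6.76% every TSA embryo above. The 1 higher with TSA+late VC than with TSA was Hsf1, where 18.3% of all transcripts did not overlap in that direction. With 8 entries, a count of 1 or 2 is close to these shares.

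The median log2 difference of the 8 entries was 0.08 for TSA+late VC against control, -0.62 for TSA against control and 0.79 for TSA+late VC against TSA. Over all transcripts tested the medians were 0.78, -0.38 and 1.18. With median-ratio scaling, which sets embryos by their typical transcript, these became 0.08, 0.01 and 0.04, so that a difference of the first scale is to be read against them. On the second scale Hsp90aa1 and Hspa8 turned to -0.21 and -0.68 for TSA+late VC against control. The first 2 comparisons share the control embryos, and the last 2 the TSA embryos.

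**Figure D3:**
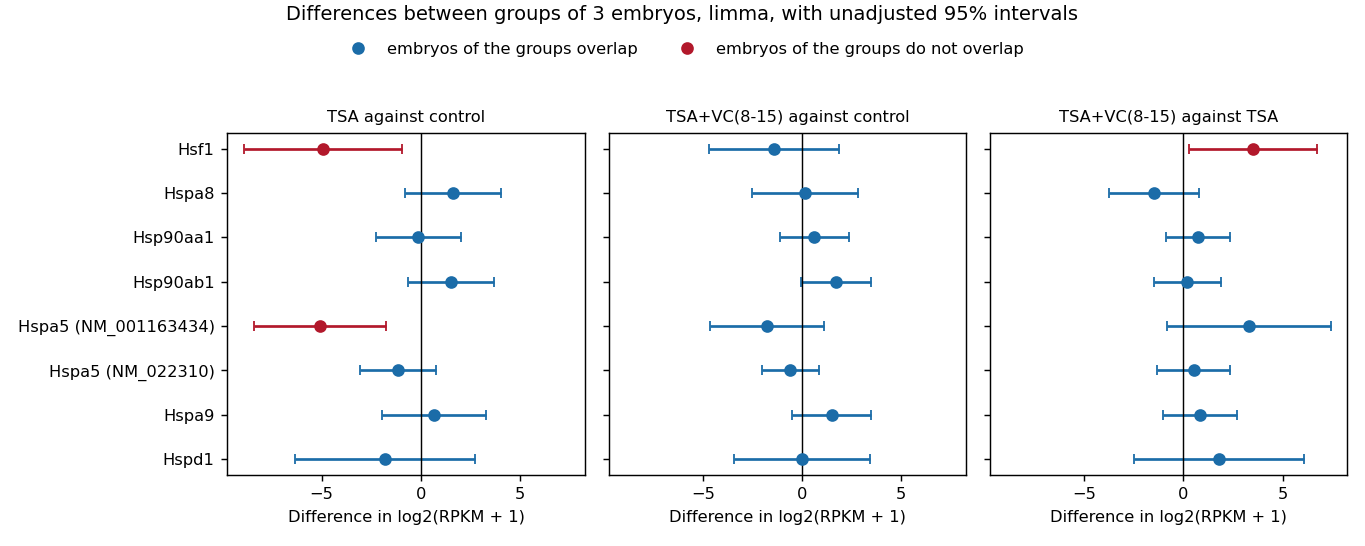
Points are differences in log2(RPKM+1) between groups of 3 embryos for the 8 entries tested, with unadjusted 95% intervals from limma, in 3 panels by comparison. Red marks entries whose embryos do not overlap between the groups: Hsf1 and the short Hspa5 entry with TSA against control, and Hsf1 with TSA+late VC against TSA. The other intervals cover 0, as that of Hsp90ab1 from -0.041 to 3.47.

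All 14 embryos were also fitted with terms for TSA, early VC and late VC. For each of the 3 terms 0 of 8 entries passed, against 0.0553%, 0% and 0.0553% of 3616 transcripts (limma with Benjamini-Hochberg adjustment). At an unadjusted p under 0.05 the counts were 1, 1 and 0, against 7.13%, 7.38% and 11.9%. The TSA term was -2.64 for the short Hspa5 entry (standard error 1.26, adjusted p = 0.670 from limma) and -0.53 for the long one. The early VC term of Hsf1 was 3.52 (standard error 1.68, adjusted p = 0.648 from limma), and that term rests on 3 embryos. Hsf1 entered this fit, and the test among treatments below, only through the control and TSA+late VC embryos, where it is higher than with TSA. The late VC term of Hsp90ab1 was 1.29 (95% interval -0.12 to 2.71, adjusted p = 0.474 from limma). Over all transcripts the median of that term was 0.56.

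The TSA term of the other tested genes ran from -1.29 for Hsf1 and -1.19 for Hspd1 over -0.66 for Hspa8 and 0.01 for Hsp90ab1 to 0.77 for Hsp90aa1 and 0.89 for Hspa9. Every 95% interval among these 6 covered 0, that of Hsp90ab1 running from -1.26 to 1.28. A test for any difference among the 6 treatments called 0 of 8 entries, against 0.221% of 3616, with Hsf1 at an unadjusted p under 0.05, against 9.93%. The interaction of TSA and late VC, in 11 embryos, called 0 of 8, against 0%.

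The interaction asks whether TSA acts differently with and without late VC. For Hsf1 it was 6.37 (standard error 2.94, adjusted p = 0.471 from limma). At an unadjusted p under 0.05 the count was 1 of 8 entries, Hsf1, against 9.87% of all transcripts. Hsf1 entered this fit only through the control and TSA+late VC embryos. High values in these groups make the interaction positive, so the filter favours such a value. Over all transcripts tested the median interaction was 1.19, and -0.07 with median-ratio scaling. For Hsp90ab1 the interaction was -2.35 (standard error 1.35, adjusted p = 0.578 from limma).

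Embryos of the same treatment differed widely in these genes, as they did over all transcripts tested. The standard deviation of log2(RPKM+1) within the groups was 0.83 for the long Hspa5 entry, 0.98 for Hsp90ab1, 1.16 for Hspa9, 1.54 for Hsp90aa1, 1.91 for Hsf1, 2.37 for Hspa8, 2.46 for Hspd1, 2.48 for Hspa1a, 2.59 for Hspa1b, 3.18 for the short Hspa5 entry and 3.21 for Hspe1. Over the 3616 transcripts tested the median was 2.05. Beside entries of a like mean level, within 0.5 on the log2 scale, the short Hspa5 entry varied more than 95.7% of them, Hspe1 more than 95.2% and Hspa8 more than 90.8%. Hsf1 varied more than 24.6% and Hspa9 more than 31.5%. In all, 7 of the 11 entries varied more than most entries of like level. That comparison is with the median of such entries, so many entries of any set lie above it. The count includes the near-identical Hspa1a and Hspa1b and is not read as a trait of these genes.

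**Figure D4:**
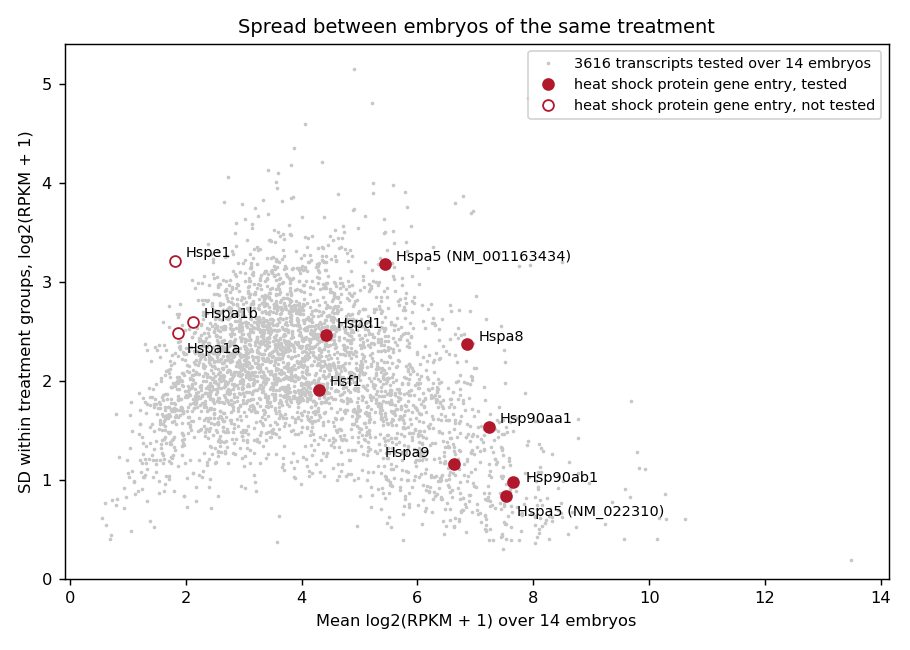
Grey points are the 3616 transcripts tested over 14 embryos, with the mean log2(RPKM+1) on the horizontal axis and the standard deviation within treatments on the vertical axis. Filled red points are the 8 heat shock entries tested and open ones the 3 not tested. Hspa8 and the short Hspa5 entry lie high for their mean level, and the long Hspa5 entry, Hsp90ab1 and Hspa9 lie among the other transcripts of like level.

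Most pairs of genes were weakly correlated across embryos. Among the 55 pairs of entries the median Spearman correlation over the 14 embryos was 0.112, with 39 pairs above 0 and 2 above 0.5. These were Hspa1a with Hspa1b, at 0.937, which share most of their sequence, and Hspa1a with Hspa8, at 0.507. The long Hspa5 entry and Hspa9 were the pair below -0.5, at -0.719, and the HSP90 genes were at -0.424. The correlations are descriptions over embryos that share pools and treatments. With the number of reads counted, the correlation of an entry lay between -0.347 for Hspa1b and 0.560 for the short Hspa5 entry.

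Of 4574 entries at 1 RPKM or more in at least 7 embryos, those most like Hspa8 over the 14 embryos were of Cntrob (Spearman correlation 0.840), Alkbh8 (0.821) and Prelid1 (0.821). Among those most like Hsp90ab1 was that of Selenot (0.855). Among those most like the sum of Hspa1a and Hspa1b were those of Ddx24 (0.878) and Ctnnd1 (0.861), of 4575 entries.

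The wider chaperone network was followed in 117 further genes. Of these, 57 reached 1 RPKM in at least 7 embryos, 14 in all 14 embryos and 14 in none. The small heat shock proteins, which hold unfolded proteins without ATP, were low, as were the other heat shock factor genes with Hsbp1. Of the small heat shock protein genes, 8 of 9 reached 1 RPKM in no embryo. In these lists 0 of 9 and 0 of 4 genes reached 1 RPKM in 7 embryos. Among the J proteins, which hand clients to HSP70, 18 of 34 did, led by Dnajb6 with a median of 468 RPKM. Of the chaperones of the endoplasmic reticulum 12 of 20 did, led by Canx (calnexin) at 372 RPKM, and of the HSP90 and HSP70 co-chaperones 10 of 24, led by Ptges3 (p23) at 264 RPKM. Of the CCT chaperonin genes, for actin and tubulin, 7 of 9 did, led by Tcp1 at 163 RPKM, and of the HSP70 and HSP110 relatives 4 of 9, led by Hsph1 at 36.6 RPKM. Of the mitochondrial proteases 5 of 6 did, led by Clpx at 42.0 RPKM, and of the HSP90 relatives 1 of 2, Hsp90b1 of the endoplasmic reticulum at 66.5 RPKM.

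None of these genes passed the threshold in any comparison with limma. At an unadjusted p under 0.05, 6 entries were higher and 3 lower of 45 tested between TSA+late VC and control embryos, 3 higher and 3 lower of 38 between TSA and control embryos, and 9 higher and 1 lower of 42 between TSA+late VC and TSA embryos. Of all transcripts tested, 18.4%, 15.2% and 18.6% had such a p, so these counts were near the background. The median differences were 1.05, -0.76 and 1.47, beside 0.78, -0.38 and 1.18 for all transcripts. Those with the smallest p-values were Dnajb11, Bag5, Manf and Clpp, named for that alone. Each was at 1 RPKM in all 3 embryos of 1 of the groups compared and entered the test through that group, which favours a difference between its groups.

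Dnajb11, a J protein of the endoplasmic reticulum that works with Hspa5, has more than 1 entry, and its entry NM_001190804 was at 80.6 to 172 RPKM in TSA+late VC embryos, at 0.0926 to 10.2 RPKM in control embryos and at 0 to 0.322 RPKM in TSA embryos. It differed by 5.71 from control (standard error 1.63, adjusted p = 0.110 from limma) and by 6.88 from TSA (standard error 1.64, adjusted p = 0.0638 from limma). Over the alternatives, its adjusted p from limma ranged from 0.00423 to 0.716 against control and from 4.0e-05 to 0.720 against TSA, where it was 0.0431 without TSA+late VC replicate 2. With all entries of the gene summed, the differences were 4.52 and 6.41. The entry was also at 46.1 RPKM in the early VC embryo and at 192 and 32.9 RPKM in the TSA+early VC embryos.

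Bag5, a nucleotide exchange factor of HSP70, was at 14.5 to 46.8 RPKM in TSA+late VC embryos, at 0 to 0.0683 RPKM in control embryos and at 0 to 0.300 RPKM in TSA embryos. Its difference from control was 4.82 (standard error 1.24, adjusted p = 0.110 from limma, 0.000256 to 0.716 over the alternatives) and from TSA 4.69 (standard error 1.19, adjusted p = 0.0638 from limma, 0.00476 to 0.720 over the alternatives). The latter was 0.0355 without TSA+late VC replicate 2 and 0.0485 without replicate 3 (limma). It was at 44.7 RPKM in the early VC embryo, at 0 and 65.0 RPKM in the TSA+early VC embryos and at 0.0951 and 0.214 RPKM in the late VC embryos.

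Between TSA and control embryos, Manf, a secreted protein of the endoplasmic reticulum stress response, was at 10.8 to 158 RPKM against 0 to 0.701 RPKM, a difference of 5.31 (standard error 1.72, adjusted p = 0.135 from limma, 0.000346 to 0.860 over the alternatives). Clpp, the protease of the mitochondrial matrix, was at 0.106 to 0.274 RPKM with TSA against 11.5 to 173 RPKM in control embryos, a difference of -5.26 (standard error 1.71, adjusted p = 0.135 from limma, 0.0138 to 0.860 over the alternatives). Neither passed the test. Over all transcripts tested in this comparison, 6.76% did not overlap with TSA higher and 11.8% with TSA lower. Manf was at 23.8 RPKM with early VC, 0.0460 and 0.0690 with late VC and 97.8 and 5.85 with TSA+early VC. With TSA+late VC it was at 47.5, 0.0583 and 36.7 RPKM. Clpp was at 87.5 RPKM with early VC, 149 and 0.126 with late VC and 17.5 and 0.759 with TSA+early VC. With TSA+late VC it was at 0.191, 0.213 and 0.202 RPKM.

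The cumulus cell markers, summed, were at 0 to 18.4 RPKM in control embryos, at 0 to 144 RPKM in TSA embryos and at 2.82 to 63.7 RPKM in TSA+late VC embryos. The oocyte markers were at 282 to 1264, 513 to 1611 and 382 to 799 RPKM, and the markers of the two-cell stage at 8.21 to 314, 163 to 365 and 349 to 416 RPKM. The number of entries at 1 RPKM was 3819 to 5439, 3556 to 4249 and 5489 to 5720. The part of these in the differences of the heat shock protein genes was not tested.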

How the data were processed

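Total RNA of 14 single two-cell SCNT embryos had been sequenced as single-end reads of 50 bases. After quality trimming and filtering, the authors mapped reads to mm9 with TopHat (TopHat2 in the submitters' processing notes, no version given), counted those on exons and deposited RPKM values per RefSeq transcript, normalized to total counts and transcript length. How multi-mapped reads were treated is not given in the sources used here. Only RPKM was used. The study's own differential test was edgeR on counts, which were not analysed here.

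Groups and replicate numbers came from the sample labels. The study describes the TSA+late VC embryos as made in separate nuclear transfer experiments. For the other groups no such statement was found, and p-values measure the spread between these embryos. RPKM values move in steps of 1 read, and whole reads were recovered for 99.9% of 14532 entries with reads in at least 2 embryos, holding 89.2% to 93.9% of the reads. With 3 reads as a floor, a 1 kb transcript is seen from 0.221 to 0.993 RPKM. These floors cover counting error only.

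log2(RPKM+1) was compared with limma (version 3.58.1, R 4.3.3), with a trended prior variance and the Benjamini-Hochberg method over all transcripts tested, at a threshold of 0.05. Transcripts needed at least 1 RPKM in all 3 embryos of a group. The fits were checked on simulated data. The sum of Hspa1a and Hspa1b was compared with two-sided exact permutation tests. The 10 genes and the wider chaperone lists were chosen with earlier results of these data known. Of the wider lists, those past the threshold were to be named, and otherwise the 2 with the smallest p-values in each comparison of 3 against 3 embryos. The genes most like Hspa8, Hsp90ab1 and the Hspa1 sum were the 3 with the highest Spearman correlation, some of which are not reported here. Of the list symbols, 34 of 35 J proteins and 9 of 10 two-cell genes were matched, and all of the others.

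Alternatives were a pseudocount of 0.1, no filter, a filter blind to groups, median-ratio scaling, a replicate block, entries summed by gene, limma-voom on recovered reads and leaving out each embryo. Leaving out pool 3 for the Hspa1 sum was chosen after seeing the data. Gene positions are from GENCODE M1 (mm9), and sequences from RefSeq tables. The other steps ran in Python 3.11.15 (pandas 2.3.3, numpy 2.4.6, scipy 1.17.1), with matplotlib 3.10.9 for the plots.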

Additional observations from a re-analysis of the deposited data

Results flagged for a closer look

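Hsf1 stood out because its same-pool differences between embryos with and without TSA had opposite signs with and without late VC. Without VC, every TSA embryo was below the control embryo of its pool, with differences of -7.20, -3.86 and -3.73 on the log2 scale, and with late VC both embryos that also had TSA were above the late VC embryo of their pool (0.40 and 3.16). The interaction was 6.37 (standard error 2.94), with an adjusted p = 0.471 from limma, so it did not pass the correction. Over all transcripts tested the median interaction was 1.19 in the same direction, and -0.07 with median-ratio scaling. Hsf1 entered the fit only through the control and TSA+late VC embryos, which favours a positive value. The late VC group has 2 embryos, and the pool 3 embryo with both treatments has no partner.

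Hsp90ab1 showed the opposite order. Without late VC, TSA embryos were above the control embryo of their pool in 3 of 3 pools (2.40, 0.50 and 1.65), and with late VC they were below their partner in 2 of 2 pools (-1.26 and -1.37). The interaction was -2.35 (standard error 1.35, adjusted p = 0.578 from limma), which did not pass the test. Of 3616 transcripts tested, 6.72% had opposite signs in every same-pool pair as these entries did, and of the 8 heat shock entries 2.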

How the results depend on the processing

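None of the 8 entries tested passed the threshold in any comparison under any alternative run, nor did Hspa1a, Hspa1b or Hspe1 where an alternative let them in, and the lowest adjusted p of any was 0.0816 (limma). Of 378 values under other settings 24 changed sign, and of 568 with 1 embryo left out 49 did. The causes were not tested. Signs turned with median-ratio scaling for Hsp90aa1 (-0.21) and Hspa8 (-0.68) in TSA+late VC against control, for Hsp90aa1 (0.32) in TSA against control, for Hsp90ab1 (-1.11), Hsp90aa1 (-0.58), Hspa9 (-0.48) and the long Hspa5 entry (-0.79) in TSA+late VC against TSA, and for the TSA term of Hsp90ab1 (-0.20). They turned with a pseudocount of 0.1 for Hspd1 (0.14) in the first comparison, and with limma-voom for Hsp90aa1 (0.54) in the second and for the TSA term of Hspa8 (0.15).

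With 1 embryo left out, the difference from control ranged with TSA+late VC from -1.64 to 0.98 for Hspd1, from -0.33 to 1.25 for Hsp90aa1 and from -1.16 to 1.24 for Hspa8, and with TSA from -1.07 to 0.51 for Hsp90aa1 and from -0.27 to 1.12 for Hspa9. Between the treated groups it ranged from -0.32 to 0.87 for Hsp90ab1 and from -0.041 to 0.86 for the long Hspa5 entry. The TSA term ranged from -0.27 to 0.47 for Hsp90ab1, from -0.075 to 1.18 for Hsp90aa1 and from -1.39 to 0.093 for Hspa8, and the late VC term of Hsf1 from -0.42 to 1.52. The Hspa1 sum ranged from -2.34 to 0.35, from -1.71 to 1.36 and from -1.94 to 0.43 in the 3 comparisons of 3 embryos.

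The count over all transcripts depended on the setting: 1, 3 and 0 in the 3 comparisons became 335, 162 and 311 with limma-voom, 118, 104 and 195 with a pseudocount of 0.1, and 0, 0 and 0 with no filter. For any difference among treatments, 8 became 779 with no filter. A replicate block on the labelled numbers gave 20, 4 and 196 transcripts, and 0 heat shock entries in each. Embryos with the same number did not deviate together (correlations from -0.048 to 0.031), so the numbers were not taken to pair them in the tests. Same-pool differences are given as values within a pool, which in the groups of 3 has the replicate's number. Of the wider chaperones, Dnajb11 and Bag5 passed against TSA with this block (adjusted p = 0.0353 each, limma). Depth limits the low values of Hspa1a, Hspa1b and Hspe1, such as the 1 and 2 reads of Hspa1a in TSA+late VC embryos.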
